A study of Mus musculus with 12 samples.

Results

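The expression of 9 genes used as markers of injury and toxicity in the kidney tubule was measured in mice given cannabidiol (CBD), the main compound of hemp that does not intoxicate. The genes were Havcr1, Lcn2, Krt20, Vcam1, Spp1, Timp1, Clu, Cdkn1a and Sox9. They were listed by gene name and are 9 of the 57180 Ensembl genes in the count files. Kidney poly(A) RNA from 12 male C57BL/6J mice, young adults at the start, was sequenced with 1 library per mouse. The control group (4 mice) received saline with Tween 80 by daily intraperitoneal injection for 28 days. The other groups (4 mice each) received 10 or 20 mg CBD/kg b.w. in the same vehicle, so all 12 mice carried the vehicle and the injections. The comparisons ask whether CBD at either dose changed the RNA of genes that report damage to the tubule.

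The tubule reabsorbs most of what the glomerulus filters, and its proximal segment takes up many toxic compounds. Injured tubule cells lose transporters and switch on genes that are scarcely used in the healthy tubule. Some of the products are shed or secreted into urine, which is why Havcr1 (KIM-1) and Lcn2 (NGAL) are read as urinary markers. Others mark cells that lose their shape and repair (Krt20, Sox9, Vcam1), a remodelled matrix (Spp1, Timp1), protection of stressed cells (Clu) and a halted cell cycle (Cdkn1a). RNA was taken from kidney tissue, so fewer cells of a type and less RNA per cell cannot be told apart.

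The libraries held 15417867 to 23532088 counts on genes, with a median of 18193787.5, and 17163 genes had enough counts for testing. Proximal tubule markers summed to at least 26900 CPM (counts scaled to the normalized size of the library) in every library, while adrenal cortex markers summed to at most 5.74 CPM. The share of counts on mitochondrial genes ranged from 3.53% to 23.4% and was under 10% in 4 libraries, of which 1 was in the control group, 2 were in the group treated with 10 mg and 1 was in the group treated with 20 mg.

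None of the tested injury markers was called at either dose. In this work a gene was called when its adjusted p-value in the edgeR quasi-likelihood test was under 0.1. Of the 9 markers, 7 passed the filter on low counts, and Krt20 and Timp1 did not. At 10 mg, 0 of the 7 were called, beside 0.0291% of all genes tested, and 0 had an unadjusted p under 0.05, beside 5.67% of all genes. At 20 mg, 0 of the 7 were called, beside 0.303% of all genes. The same 2 shares apply to the other gene lists below, so 0 called in a list is near the share over all genes. Vcam1 and Cdkn1a, 2 of the 7, were higher at 20 mg with an unadjusted p under 0.05, beside 4.92% of all genes. DESeq2 also called 0 of the markers at either dose, beside 0.258% of all genes at 10 mg and 1.13% at 20 mg.

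**Figure D1:**
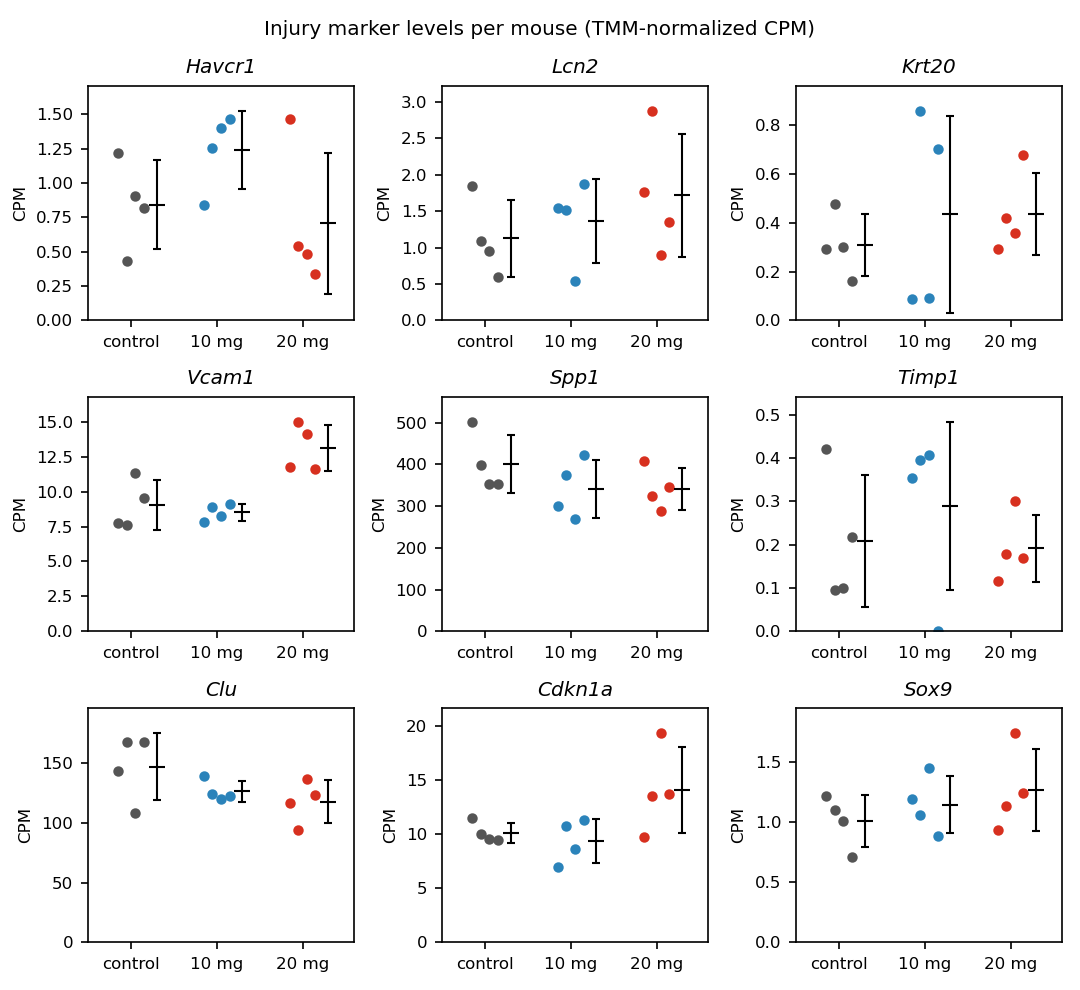
Level of each injury marker in every mouse, in TMM-normalized CPM (y axis from 0), by group (control, 10 mg and 20 mg CBD/kg b.w.). Points are mice and bars are mean ± SD of 4 mice. Vcam1 is the 1 panel in which the mice treated with 20 mg, at 11.6 to 15.0 CPM, all lie above the control mice, at 7.58 to 11.3 CPM.

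The markers differed widely in level. Per kilobase of exon and averaged over 12 mice, the level of Spp1 was 127 CPM per kb and that of Clu was 23.2 CPM per kb. Cdkn1a followed at 1.86 CPM per kb and Vcam1 at 1.14 CPM per kb. The level was 0.536 CPM per kb for Lcn2, 0.359 for Havcr1, 0.273 for Sox9, 0.203 for Krt20 and 0.117 for Timp1. In the control group Spp1 stood at percentile 98.9 of the genes tested by level per length and Clu at percentile 93.2, while Lcn2 stood at 18.7, Havcr1 at 14.7 and Sox9 at 10.5. The abundant markers Spp1 and Clu did not overlap in range with the gene next in order. From Cdkn1a to Timp1, neighbours overlapped in range over the 12 mice. Within single mice, Cdkn1a was above Vcam1, and Vcam1 above Lcn2, in 12 of 12 mice, while Lcn2 was above Havcr1 in 10, Havcr1 above Sox9 in 8, Sox9 above Krt20 in 9 and Krt20 above Timp1 in 8 of 12 mice. The last 5 genes in this order had at most 48 counts in a library.

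**Figure D2:**
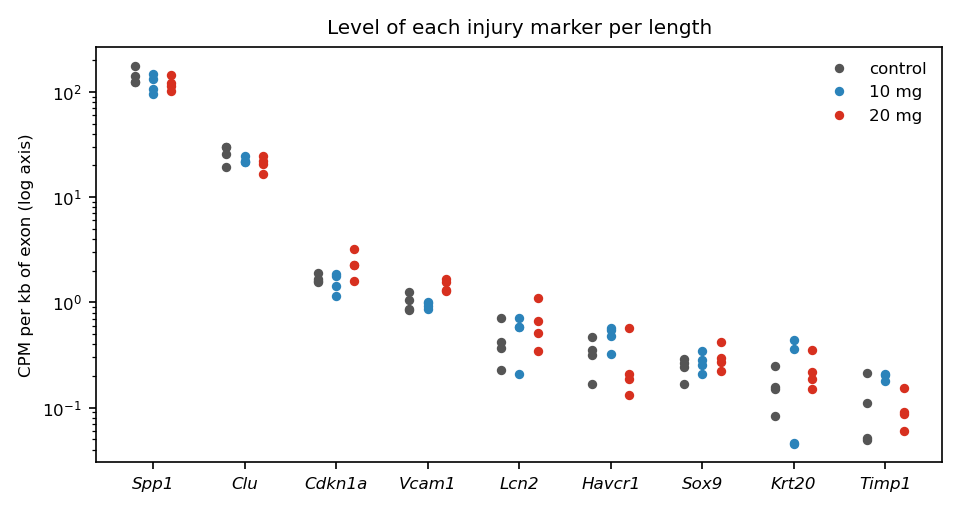
Level of each injury marker per kilobase of exon (CPM per kb, log axis) in each mouse, ordered by the mean over 12 mice, with control, 10 mg and 20 mg side by side. Spp1 (127 CPM per kb) and Clu (23.2 CPM per kb) stand apart from the other 7 genes, and the mouse with 0 counts of Timp1 is not drawn on the log axis.

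Havcr1 encodes KIM-1, a receptor on injured proximal tubule cells that binds the phospholipids of dying cells. It lies on chromosome 11 at 46625907-46670405, plus strand (positions of genes are GRCm39, and reads were counted per gene). Its level was 0.429, 0.816, 0.907 and 1.22 CPM in the control mice, from 9 to 29 counts per library. The mice treated with 10 mg had 0.840, 1.25, 1.40 and 1.47 CPM. Those treated with 20 mg had 0.339, 0.480, 0.539 and 1.46 CPM. The groups overlapped, with 3 mice of the lower dose above all controls and 3 of the 4 mice of the higher dose below 3 of the 4 controls. The means were 0.842 ± 0.325, 1.24 ± 0.28 and 0.705 ± 0.513 CPM (SD, n = 4 per group). The log2 fold change was 0.55 at 10 mg (SE 0.42, 95% confidence interval -0.36 to 1.45, adjusted p = 0.906). At 20 mg it was -0.26 (95% confidence interval -1.22 to 0.70, adjusted p = 0.925). The intervals span 0.779- to 2.73-fold at 10 mg and 0.428- to 1.62-fold at 20 mg. Between the doses the log2 fold change was -0.81 (adjusted p = 0.812), and 3 of 4 mice given 20 mg lay below all 4 given 10 mg. The fourth, replicate 1, had the 1.46 CPM, and without it the log2 fold change was -1.45 between the doses (edgeR adjusted p = 0.665) and -0.91 at 20 mg against the control group (adjusted p = 0.470).

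Lcn2 encodes NGAL, a secreted protein that binds iron-carrying siderophores and is made by the injured distal nephron and by neutrophils. The gene spans 32274645-32278264 on chromosome 2, minus strand. Control mice had 0.598, 0.957, 1.10 and 1.85 CPM. At 10 mg the level was 0.542, 1.52, 1.55 and 1.88 CPM. At 20 mg it was 0.900, 1.36, 1.76 and 2.87 CPM. All 3 groups overlapped, and 1 mouse of each treated group lay above all controls. Against control it was 0.25 on the log2 scale at 10 mg (95% confidence interval -0.68 to 1.19, adjusted p = 0.956) and 0.60 at 20 mg (SE 0.43, 95% confidence interval -0.33 to 1.52, adjusted p = 0.778). The upper bound at 20 mg was 2.87-fold.

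Krt20, an intermediate filament gene of urothelium that injured tubules also switch on, was near the limit of detection. It lies on chromosome 11 at 99319227-99328985, minus strand. The libraries held 2 to 13 counts of it. The level was 0.163, 0.294, 0.302 and 0.477 CPM in control mice and 0.293, 0.360, 0.419 and 0.678 CPM at 20 mg. At 10 mg it split into 0.0884 and 0.0903 CPM in replicates 1 and 3 and 0.704 and 0.858 CPM in replicates 4 and 2. Pooled over 4 libraries, the level was 0.313 CPM in the control group (exact Poisson 95% interval 0.205 to 0.459), 0.377 at 10 mg (0.252 to 0.541) and 0.440 at 20 mg (0.297 to 0.628). These intervals cover counting error only and overlap. The summed level of 6 urothelium markers in the group treated with 10 mg was 4.73 CPM in replicate 1, 6.86 in replicate 2, 0.678 in replicate 3 and 10.6 in replicate 4. It was therefore also highest in replicates 2 and 4, and its part in the Krt20 values was not tested. The 6 urothelium markers summed to 1.86 to 11.7 CPM in the control group and 3.53 to 5.45 CPM at 20 mg, and none was called at either dose. The uroplakin genes Upk3b and Upk2 had log2 fold changes of -1.35 (adjusted p = 0.511) and 0.53 (adjusted p = 0.900) at 20 mg.

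Sox9 encodes a transcription factor of tubule cells in repair. It is on chromosome 11 at 112673009-112678586, plus strand, with BC006965 on the opposite strand. The control mice had 0.707, 1.01, 1.10 and 1.22 CPM. Levels of 0.880, 1.06, 1.19 and 1.45 CPM were found at 10 mg. Levels of 0.937, 1.14, 1.24 and 1.74 CPM were found at 20 mg. The treated mice lay in or close to the range of the controls, with 1 of 4 above all controls at 10 mg and 2 of 4 at 20 mg. Against control Sox9 differed by 0.19 on the log2 scale at 10 mg (95% confidence interval -0.43 to 0.81, adjusted p = 0.946) and 0.32 at 20 mg (95% confidence interval -0.30 to 0.94, adjusted p = 0.835).

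Vcam1 encodes an adhesion molecule that binds the integrin of Itga4 and Itgb1 on leukocytes. It is carried by activated endothelium and by proximal tubule cells that fail to repair. The gene spans 115903598-115923355 on chromosome 3, minus strand, and an unnamed gene model (Gm43109) overlaps it on the opposite strand. The level in the control mice was 7.58, 7.73, 9.57 and 11.3 CPM, from 159 to 225 counts per library. At 10 mg it was 7.82, 8.22, 8.91 and 9.10 CPM. At 20 mg it was 11.6, 11.8, 14.1 and 15.0 CPM. Every mouse given 20 mg lay above every control mouse and every mouse given 10 mg, whereas the 10 mg group lay inside the control range. The means were 9.05 ± 1.77, 8.51 ± 0.59 and 13.1 ± 1.67 CPM (SD, n = 4 per group).

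At 20 mg Vcam1 was 1.45-fold the control group (log2 fold change 0.54, SE 0.16, 95% confidence interval 0.20 to 0.87). The difference did not pass the test over all genes (edgeR adjusted p = 0.337, rank 193 of 17163 by p, DESeq2 adjusted p = 0.119). The exact two-sided permutation test of log2 CPM gave p = 0.0286, the smallest p that 4 mice against 4 can give. It was 1 of 7 markers whose 20 mg group lay wholly above the controls, beside 2.67% of all genes. Against the group treated with 10 mg, Vcam1 was higher by 0.63 on the log2 scale (SE 0.16, edgeR adjusted p = 0.758, DESeq2 adjusted p = 0.136). Its rank by p was 20 in edgeR. At 10 mg against control the log2 fold change was -0.09 (95% confidence interval -0.43 to 0.25, adjusted p = 0.958). With the mitochondrial share as a covariate, Vcam1 was the 1 marker called at 20 mg (log2 fold change 0.50, adjusted p = 0.0643), in a fit that called 8.08% of all genes. Without the 4 libraries under 10% mitochondrial counts its log2 fold change was 0.43 (adjusted p = 0.412).

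Cells that carry Vcam1 in other settings were checked through their markers. The 7 endothelial markers summed to 406 to 448 CPM in the control group, 405 to 450 CPM at 10 mg and 407 to 486 CPM at 20 mg, and 0 of the 7 were called. At 20 mg 6 of the 7 had a positive and 1 a negative log2 fold change. Their median was 0.12, beside 0.0146 for all genes tested. The 1 lower gene was Kdr, a receptor for VEGF on endothelium. Kdr was 89.0 ± 8.27 CPM in the control group and 70.9 ± 6.96 CPM at 20 mg (log2 fold change -0.33, adjusted p = 0.419). At 20 mg it lay below all controls, as 1 of the 7 markers did, beside 2.63% of all genes. Tie1, an endothelial receptor, had, at 20 mg, a log2 fold change of 0.11 (adjusted p = 0.903).

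The 10 leukocyte markers summed to 54.8 to 68.6 CPM in the control group, 54.4 to 65.6 CPM at 10 mg and 54.2 to 59.6 CPM at 20 mg. Of these, 9 were tested and 0 were called. Cd68, a macrophage gene, had, at 20 mg, a log2 fold change of -0.11 (adjusted p = 0.951), and Cd3e, a T cell gene, had 0.46 (adjusted p = 0.847). Of the integrin partners, Itga4 was 3.5 ± 0.71 CPM in the control group and 4.74 ± 1.36 CPM at 20 mg (log2 fold change 0.44, adjusted p = 0.680), and Itgb1 was 215 ± 16.2 and 197 ± 16.3 CPM (log2 fold change -0.13, adjusted p = 0.810). The 5 adipocyte markers summed to 6.50 to 96.5 CPM in the control group, 0.949 to 34.9 CPM at 10 mg and 0.420 to 18.4 CPM at 20 mg, and 0 were called. Their part in the Vcam1 difference was not tested.

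**Figure D3:**
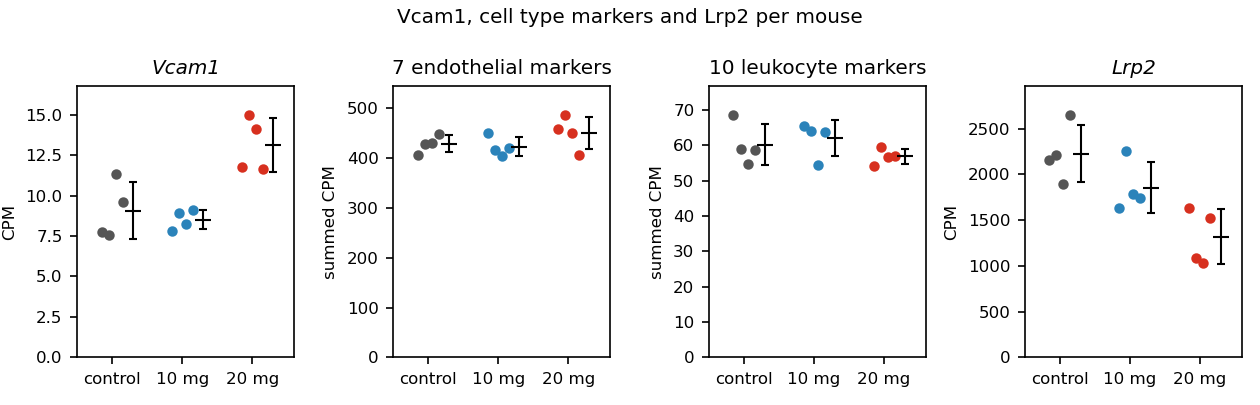
Vcam1 (CPM), the summed level of 7 endothelial and of 10 leukocyte markers (summed CPM) and Lrp2 (CPM) in every mouse by group, with points for mice and bars for mean ± SD of 4 mice. Vcam1 is higher in all 4 mice at 20 mg (11.6 to 15.0 CPM), the endothelial and leukocyte sums overlap between groups, and Lrp2 is at 1035 to 1630 CPM at 20 mg, below the controls.

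Spp1 encodes osteopontin, a secreted matrix protein that binds integrins and is made by the distal tubule and by injured segments. It lies on chromosome 5 at 104582165-104589235, plus strand, where a gene model (Gm42793) overlaps it on the same strand. Control mice had 352, 353, 398 and 501 CPM. At 10 mg the level was 269, 301, 375 and 421 CPM, and at 20 mg it was 289, 323, 345 and 407 CPM. The groups overlapped, and 3 of 4 mice given 20 mg were below all controls. The log2 fold change was -0.23 at both doses, with a 95% confidence interval of -0.59 to 0.13 at each. The adjusted p was 0.897 at 10 mg and 0.776 at 20 mg. Counts were 4812 to 11938 per library, and the upper bound of the interval in this fit was 1.09-fold at each dose. Leaving out 1 library moved the log2 fold change at 10 mg between -0.35 and -0.10. It was -0.019 (SE 0.17) without the 4 libraries under 10% mitochondrial counts, so the bound depends on the libraries used.

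Timp1, an inhibitor of matrix metalloproteinases, lies on chromosome X at 20736316-20740976, plus strand, and overlaps Syn1 on the opposite strand. Control mice had 0.0954, 0.101, 0.217 and 0.420 CPM. At 10 mg the values were 0, 0.354, 0.396 and 0.407 CPM. At 20 mg they were 0.117, 0.169, 0.180 and 0.300 CPM. The 0 is replicate 4 of the group treated with 10 mg, where 3 counts would be 0.176 CPM. Pooled over 4 libraries, the level was 0.217 CPM in the control group (exact Poisson 95% interval 0.128 to 0.343), 0.299 at 10 mg (0.189 to 0.448) and 0.191 at 20 mg (0.102 to 0.326). These intervals overlap, and each library held at most 10 counts.

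Clu encodes clusterin, a secreted chaperone that protects stressed cells, and is on chromosome 14 at 66190200-66218999, plus strand, with Scara3 and Gm19222 overlapping it on the opposite strand. In the control mice its level was 109, 144, 168 and 168 CPM. The mice treated with 10 mg had 120, 122, 124 and 139 CPM. The mice treated with 20 mg had 94.2, 116, 124 and 137 CPM. All 8 treated mice lay below the median of the control mice, but above the lowest control except for 1 mouse at 20 mg. The means were 147 ± 28.1, 126 ± 8.59 and 118 ± 17.9 CPM (SD, n = 4 per group). For Clu the log2 fold change was -0.22 at 10 mg (95% confidence interval -0.54 to 0.10, adjusted p = 0.893) and -0.32 at 20 mg (adjusted p = 0.590). For both doses together it was -0.27, with an adjusted p of 0.720 in edgeR and an exact permutation p of 0.0848. The upper bound of the interval at 20 mg was 1.00-fold.

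Cdkn1a encodes p21, which halts the cell cycle and is the best known target of p53. It lies on chromosome 17 at 29309936-29319701, plus strand, with 2 gene models on the opposite strand (Dino and Gm64878). The level was 9.52, 9.57, 10.0 and 11.5 CPM in the control mice. At 10 mg it was 6.94, 8.63, 10.8 and 11.3 CPM. At 20 mg it was 9.72, 13.6, 13.7 and 19.4 CPM. At the higher dose 3 of 4 mice lay above all controls and 1 lay among them. The log2 fold change was -0.12 at 10 mg (95% confidence interval -0.55 to 0.31, adjusted p = 0.958). At 20 mg it was 0.47 (SE 0.20, 95% confidence interval 0.05 to 0.90), with an edgeR adjusted p of 0.535. The exact permutation test gave p = 0.0857. Between the doses it was 0.59 (SE 0.20, adjusted p = 0.758). The highest value, 19.4 CPM, belonged to replicate 3, 1 of the 4 libraries under 10% mitochondrial counts, and without it the log2 fold change at 20 mg was 0.28 (adjusted p = 0.850). Without replicate 1 of that group, the lowest, it was 0.61 (adjusted p = 0.309).

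The promoter of Cdkn1a is shown because this gene was 1 of the 2 markers with an unadjusted p under 0.05 at 20 mg and because other p53 targets were measured beside it. The sequences are from RefSeq (GRCm38.p6), and the promoter table used here matched 6 of the 9 markers, all but Vcam1, Clu and Sox9. The 250 bases before each of 2 starts of Cdkn1a are printed on the plus strand, at chr17:29090729-29090978 and chr17:29093519-29093768. Capitals mark CATG followed after 6 bases by CATG in the first, and GGGCGG, the core of an Sp1 site, in the second.
Cdkn1a start 1: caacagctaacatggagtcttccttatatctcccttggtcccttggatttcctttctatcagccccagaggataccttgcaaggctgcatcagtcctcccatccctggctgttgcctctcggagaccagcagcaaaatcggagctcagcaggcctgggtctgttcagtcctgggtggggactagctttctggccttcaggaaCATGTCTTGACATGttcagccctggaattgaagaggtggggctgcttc
Cdkn1a start 2: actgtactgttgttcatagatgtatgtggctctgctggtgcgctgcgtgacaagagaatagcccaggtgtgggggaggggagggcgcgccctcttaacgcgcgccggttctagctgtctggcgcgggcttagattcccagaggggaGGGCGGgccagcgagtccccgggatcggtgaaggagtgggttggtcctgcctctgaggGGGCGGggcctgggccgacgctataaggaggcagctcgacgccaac
p53 binds pairs of such CATG cores. This pattern was added after the sequence had been seen. It was found in 161 of 32851 promoter windows of the same length (0.490%), and GGGCGG in 32.7%, on either strand. TATAAA (in 12.4% of windows), CACGTG (6.02%), TGAGTCA (4.46%) and TTCNNNGAA (7.02%) were searched on both strands as well and are not in these windows of Cdkn1a. A match is a description of letters and no measure of binding.

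None of the other p53 targets was called, beside 0.0291% of all genes at 10 mg and 0.303% at 20 mg. Of 18 listed targets, 17 were tested. Their median log2 fold change was -0.16 at 10 mg and 0.0033 at 20 mg, beside 0.0119 and 0.0146 for all genes tested. At 20 mg 9 had a positive and 8 a negative log2 fold change, and with an unadjusted p under 0.05 there were 0 higher and 1 lower, beside 4.92% and 3.53% of all genes. The 1 was Pmaip1, which encodes the cell death protein Noxa (0.721-fold, adjusted p = 0.570). At 10 mg 3 of the 17 had an unadjusted p under 0.05, all lower, beside 5.67% of all genes in either direction. These were Zmat3, Btg2 (0.766-fold) and Sesn2 (0.819-fold). Btg2, Pmaip1 and Sesn2 were named after their values were seen. Zmat3, an RNA-binding target, was 19.4 ± 1.16, 14.9 ± 3.19 and 16.0 ± 1.13 CPM, with log2 fold changes of -0.38 at 10 mg and -0.28 at 20 mg (adjusted p = 0.812 and 0.668). At 20 mg its treated mice all lay below the controls, as for 2 of the 17 targets, beside 2.63% of all genes. Ccng1, which encodes cyclin G1, was 135 ± 22.2, 112 ± 11.3 and 112 ± 19.6 CPM. Trp53 itself was 17.9 ± 1.18 CPM in the control group and 18.2 ± 1.04 CPM at 20 mg (adjusted p = 0.988). Mdm2, the p53 target that degrades p53, had, at 20 mg, a log2 fold change of 0.04 (adjusted p = 0.966).

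Cell division genes, which p21 acts on, were also not called, beside 0.0291% of all genes at 10 mg and 0.303% at 20 mg. Of 14, 11 were tested, and 9 of the 11 had a negative log2 fold change at each dose. The medians were -0.28 at 10 mg and -0.24 at 20 mg. Over all genes tested, 52.3% at 10 mg and 52.5% at 20 mg had a positive value, with medians of 0.0119 and 0.0146. Cdk1, the kinase that starts mitosis, was 1.13 ± 0.24, 0.716 ± 0.0894 and 0.958 ± 0.191 CPM (adjusted p = 0.830 and 0.875). Ccnb2, a cyclin partner of Cdk1, was 0.827 ± 0.264, 0.582 ± 0.061 and 0.497 ± 0.166 CPM (adjusted p = 0.893 and 0.609).

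Other genes of the injured tubule gave no call in edgeR either, beside 0.0291% of all genes at 10 mg and 0.303% at 20 mg. Of 36 listed, 31 were tested, with a median log2 fold change of -0.0118 at 10 mg and 0.0582 at 20 mg. At 20 mg 4 of the 31 were higher and 3 lower with an unadjusted p under 0.05, where 4.92% and 3.53% of all genes were. The 4 were Cxcl1, a chemokine (2.15-fold), Fgg, a fibrinogen chain (1.47-fold), Gpnmb, a membrane glycoprotein (2.47-fold), and Plaur. The 3 were C3, Itgb6 and Prom1, which encodes CD133 (0.764-fold). C3, the central complement component, was 42.8 ± 22.1 CPM in the control group, 22.2 ± 6.03 CPM at 10 mg and 21.3 ± 4.03 CPM at 20 mg. Its log2 fold change was -1.01 at 20 mg (edgeR adjusted p = 0.356). The control mice ranged from 19.6 to 72.8 CPM, so the groups overlapped. The lowest control, replicate 3, also had the lowest summed adipocyte markers of the control mice (6.50 CPM). The part of adipocyte RNA in the C3 values was not tested. Plaur, the urokinase receptor, was 2.41 ± 0.43, 4.15 ± 1.38 and 3.66 ± 0.78 CPM, with log2 fold changes of 0.79 at 10 mg and 0.60 at 20 mg (adjusted p = 0.796 and 0.533). DESeq2 called 2 of the 31 at 20 mg, beside 1.13% of all genes, namely C3 (adjusted p = 0.0999) and Itgb6 (adjusted p = 0.0908), of which Itgb6 is an epithelial integrin chain. Cxcl1, Fgg, Gpnmb, Itgb6 and Prom1 were named after their values were seen. Itgb6 was 54.6 ± 4.68 CPM in the control group and 35.9 ± 7.02 CPM at 20 mg.

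A panel of 13 urinary toxicity markers had 12 tested genes, 0 called, and medians of 0.0422 at 10 mg and 0.156 at 20 mg. Calb1, the calcium-binding protein of the distal tubule, was 97.9, 165, 209 and 244 CPM in the control mice, 108, 124, 127 and 152 CPM at 10 mg and 84.3, 86.4, 98.9 and 111 CPM at 20 mg. The group treated with 20 mg lay below 3 of the 4 controls. The log2 fold change at 20 mg was -0.91 (edgeR adjusted p = 0.168, DESeq2 adjusted p = 0.0134). Timp2, an inhibitor of metalloproteinases and a urinary marker of cell cycle arrest, was 29.4, 32.1, 33.2 and 35.3 CPM in the control mice and 38.7, 39.4, 44.3 and 52.7 CPM at 20 mg. It lay above all controls at 20 mg, as 1 of the 12 genes did, beside 2.67% of all genes (log2 fold change 0.43, adjusted p = 0.419).

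The partners of the markers, their receptors, ligands and proteases, had 16 tested genes of 19, 0 called and medians of 0.0184 at 10 mg and 0.0046 at 20 mg. At 20 mg 3 of the 16 were higher and 2 lower with an unadjusted p under 0.05, beside 4.92% and 3.53% of all genes. Lrp2 encodes megalin, the proximal tubule receptor that takes up filtered proteins, among them NGAL. It was 1891 to 2649 CPM in the control mice, 1631 to 2259 CPM at 10 mg and 1035 to 1630 CPM at 20 mg. The mice treated with 20 mg all lay below the controls, as for 2 of the 16 genes, beside 2.63% of all genes. The log2 fold change was -0.76 (SE 0.18), which edgeR did not call (adjusted p = 0.173) and DESeq2 did (adjusted p = 0.00597). Itgb3, a chain of the osteopontin receptor, was 1.66 ± 0.32, 2.33 ± 0.16 and 2.57 ± 0.64 CPM (adjusted p = 0.870 and 0.475).

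Of 13 other proximal tubule markers, 1 was called at 20 mg, where 0.134% of all genes were called lower. This was Slc5a2, the sodium-glucose transporter SGLT2. Its level was 197, 215, 222 and 236 CPM in the control mice, 165, 180, 205 and 221 CPM at 10 mg and 131, 138, 141 and 162 CPM at 20 mg. It fell by 0.61 on the log2 scale at 20 mg (SE 0.12, edgeR adjusted p = 0.082). All 4 mice lay below all controls, as for 2 of the 13 markers, beside 2.63% of all genes. Without any 1 of the 4 control libraries or the 4 libraries at 20 mg the log2 fold change was -0.67 to -0.57 and the adjusted p 0.108 to 0.273, so the gene was then not called. DESeq2 called it (adjusted p = 0.000638). At 10 mg the log2 fold change was -0.17 (adjusted p = 0.893). Miox, which starts the breakdown of inositol, was 1381 ± 162 CPM in the control group and 1071 ± 54.4 CPM at 20 mg (log2 fold change -0.37, adjusted p = 0.504). The median of the 13 was -0.0838 at 10 mg and -0.178 at 20 mg, beside 0.0119 and 0.0146 for all genes tested. Of the 13, 9 had a negative log2 fold change at 10 mg and 11 at 20 mg. Over all genes tested, 52.3% at 10 mg and 52.5% at 20 mg had a positive value.

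Markers of the loop and medulla, which a tissue sample can hold in varying share, had 9 tested genes and 0 called, with medians of 0.196 at 10 mg and 0.112 at 20 mg. Their sum was 1021 to 1698 CPM in the control group, 1188 to 2128 CPM at 10 mg and 1158 to 1500 CPM at 20 mg. Slc12a1, the transporter of the thick ascending limb, was 836 ± 222, 1106 ± 330 and 904 ± 145 CPM. Scnn1b, a sodium channel subunit, was 32.5 ± 4.48, 37.2 ± 4.35 and 40.6 ± 16.0 CPM.

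Among 12 scarring genes, 11 were tested, 0 were called and 3 were higher at 20 mg with an unadjusted p under 0.05, beside 4.92% of all genes, namely Lox, Ccn2 and, named after its values were seen, the smooth muscle actin gene Acta2 (adjusted p = 0.526). Lox, which crosslinks collagen, was 2.12, 2.82, 2.86 and 4.12 CPM in the control mice, 2.43, 3.30, 6.10 and 6.66 CPM at 10 mg and 4.57, 5.94, 10.6 and 11.5 CPM at 20 mg. All 4 mice treated with 20 mg were above all controls, as for 2 of the 11 genes, beside 2.67% of all genes. The log2 fold change of Lox was 1.44 (SE 0.35, edgeR adjusted p = 0.187, DESeq2 adjusted p = 0.0103). Ccn2, a matrix gene that TGF-beta induces, was 93.6 ± 6.22 CPM in the control group and 125 ± 30.5 CPM at 20 mg (log2 fold change 0.41, adjusted p = 0.474). The medians of the 11 were 0.120 at 10 mg and 0.243 at 20 mg.

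**Figure D4:**
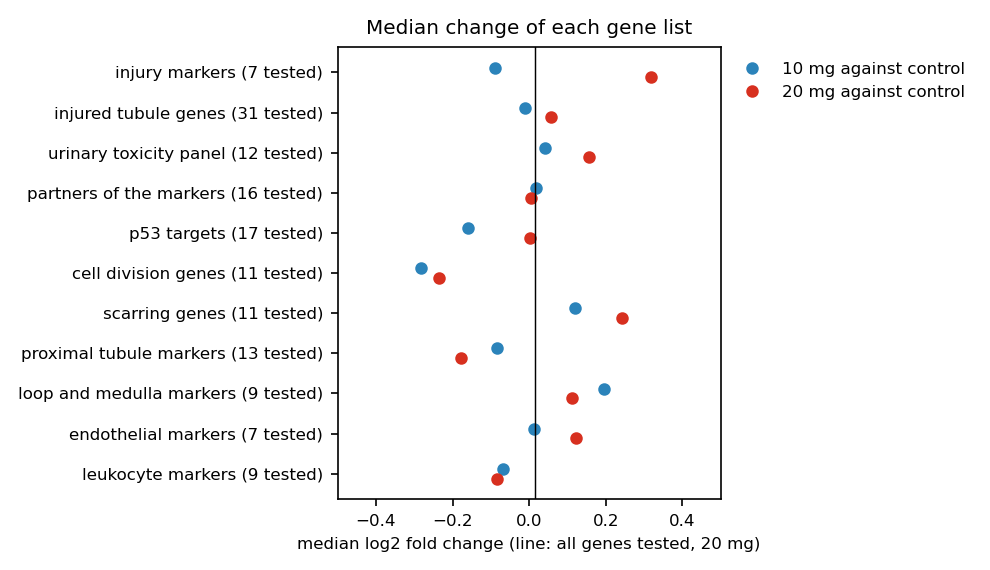
Median log2 fold change of each gene list at 10 and 20 mg CBD/kg b.w. against the control group (x axis), with the number of genes tested in brackets and a line at the median of all genes tested at 20 mg (0.0146). The injury markers are at -0.09 and 0.32, and the 31 other injured tubule genes are close to the line.

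**Figure D5:**
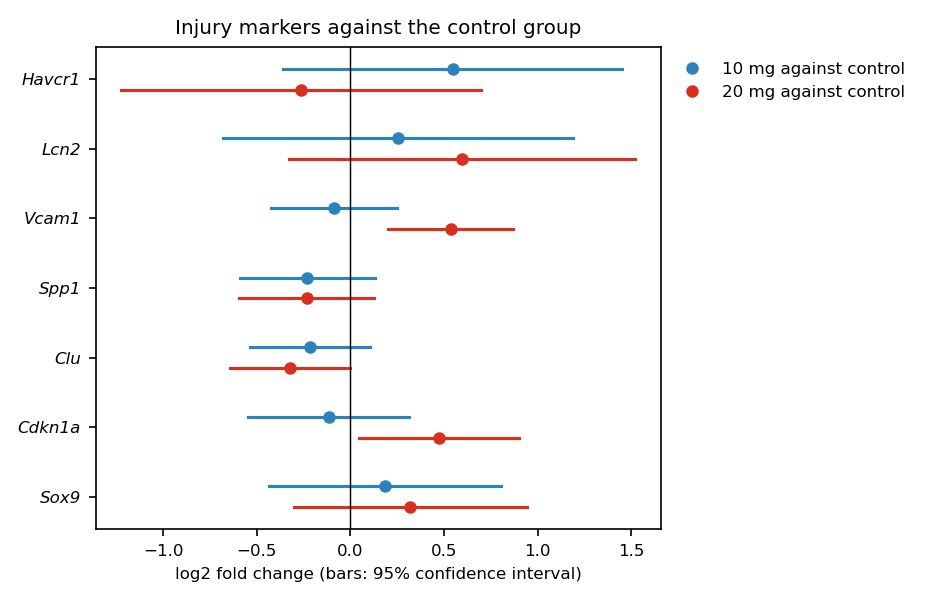
Log2 fold change of the 7 tested injury markers at 10 and 20 mg against the control group (x axis), with bars for the 95% confidence interval from edgeR. The intervals of Vcam1 and Cdkn1a at 20 mg lie above 0, and the other intervals hold 0.

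The 7 tested markers as a set had a median log2 fold change of -0.0891 at 10 mg and 0.319 at 20 mg. At 10 mg 3 had a positive and 4 a negative value, and at 20 mg 4 had a positive and 3 a negative value, so they did not move one way at either dose. Between the doses 0 of the 7 were called, as were 0 of all genes (0%) by edgeR. DESeq2 called 0.0986% of the 12170 genes to which it gave an adjusted p, and no marker. It gave none to Havcr1, Lcn2 and Sox9, so these could not be called there. Vcam1 and Cdkn1a were higher at 20 mg than at 10 mg with an unadjusted p under 0.05, beside 3.47% of all genes. Vcam1 at 20 mg lay wholly above the group treated with 10 mg, beside 1.70% of all genes. For both doses together 0 of the 7 were called by edgeR or DESeq2, beside 0.140% and 0.897% of all genes, and 0 had an unadjusted p under 0.05, beside 7.04%.

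No pair of markers passed the test of correlation over the 12 mice. Of 21 pairs, 0 had an adjusted p under 0.1 in the permutation test of Pearson's r or Spearman's rho, and 9 had a positive r. The highest was Vcam1 with Cdkn1a (r = 0.67, permutation p = 0.0135, adjusted p = 0.283, rho = 0.46, permutation p = 0.141, adjusted p = 0.623). Without the 2 mice farthest from the median it was 0.36, within the 8 mice of at least 10% mitochondrial counts it was 0.34, and with group means removed it was 0.28. The lowest was Vcam1 with Clu (r = -0.60, permutation p = 0.0426, adjusted p = 0.448, rho = -0.59, permutation p = 0.0486, adjusted p = 0.571), which was -0.58 without the 2 farthest mice.

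The genes whose log2 CPM was most like each marker over the 12 libraries are given as a description, from 14684 genes at 1 CPM or more. Vcam1 was most like Gpx3 (r = 0.94), a secreted glutathione peroxidase of the proximal tubule, and Pabir1 (r = 0.93). Cdkn1a was most like Snhg9 (r = 0.92), a noncoding RNA, and Ppp2r2d (r = 0.92), a phosphatase subunit. Sox9 followed Zfp428 (r = 0.95) and Zfas1 (r = 0.93). Spp1 followed Atp6v0d2 (r = 0.91), and Clu followed Vps33a (r = 0.91) and Ap1b1 (r = 0.90). Lcn2 followed Hdgfl3 (r = 0.90) and Impdh1 (r = 0.88), and Havcr1 followed Gm32358 (r = 0.86) and Ccser1 (r = 0.81). Group means were not removed from these values of r, so differences between the groups enter them, and the libraries differ in depth.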

How the data were processed

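The markers and the gene lists were chosen with earlier results of these data known. The authors used Flexbar for trimming, STAR 2.7.5c for mapping to GRCm39 and htseq-count (HTSeq 1.99.2) for counting, per the labels and the study's methods, and deposited raw counts per Ensembl gene, 1 file per library. The annotation release, strand setting and use of molecular identifiers are not given in the sources used here, so reads of overlapping genes on opposite strands may not be separated, and repeated reads are not known to be removed. Intervals from counts cover counting error only. The lines of htseq-count that name no gene (no feature 12.1% to 19.9% and ambiguous 4.72% to 5.29% of the library) were left out.

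Symbols and positions came from GENCODE vM39 by Ensembl identifier, which matched 99.02% of identifiers. Gene counts were tested with edgeR 4.0.16 in R 4.3.3: filterByExpr, TMM, 1 quasi-likelihood fit of 3 group means to all 12 libraries, Benjamini-Hochberg adjustment over 17163 genes and a threshold of 0.1. Exact permutation tests, two-sided, compared mean log2 CPM (prior count 2) of single genes over 70 arrangements for 4 mice against 4. Correlations of log2 CPM over mice used 100000 permutations (scipy 1.17.1). Each mouse is a separate replicate. Scripts were tested on simulated data. All 9 markers are named. From each other list the text names called genes, or else the 2 genes of smallest p for both doses together. Miox, the second by p in a list with 1 called gene, was named beside it, outside that rule and with its values known. For each tested marker it names the 2 genes of highest correlation, of which 1 is not reported here. Itga4, Itgb1, Trp53 and Mdm2 were named in addition as direct partners of the markers, after their values had been seen. For genes picked by p, the share over all genes does not measure how rare a gap between groups is.

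Alternatives were RLE normalization, DESeq2 1.42.0, no filter, at least 10 counts in every library, the compared groups alone, the replicate number as a block, the mitochondrial share as covariate, prior count 0.5 and removal of group means in correlations, and each library left out. Leaving out the 4 libraries under 10% mitochondrial counts was added after the data were seen.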

Additional observations from a re-analysis of the deposited data

Results flagged for a closer look

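Timp1 in replicate 4 of the group treated with 10 mg had 0 CPM, far from the other 3 mice of that group (0.354, 0.396 and 0.407 CPM). The gap to the nearest mouse was 0.87 of the range of the group. Of the 27 sets of 4 values looked at, this 1 stood out in this way, and chance gives about 1 in 20. The library with 0 held 16832859 counts in all, and 3 counts would have been 0.176 CPM.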

How the results depend on the processing

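The number of injury markers called was 0 in the comparison of 10 mg with the control group, of the doses with each other and of both doses with the control group under every alternative run, and at 20 mg it was 0 in all alternatives but the mitochondrial covariate, where it was 1 (Vcam1). Leaving out any 1 library gave 0 markers in each comparison. The number of correlated pairs was 0 under each alternative. Log2 fold changes near 0 changed sign in places. At 10 mg, leaving out 1 library moved Vcam1 between -0.17 and 0.035 (positive without control replicate 3) and Cdkn1a between -0.22 and 0.0061 (positive without replicate 1 of the 10 mg group). Without the 4 libraries under 10% mitochondrial counts Cdkn1a was 0.11 and Sox9 -0.034. Between the doses, leaving out 1 library moved Spp1 between -0.10 and 0.12 (0.046 and 0.12 without replicates 2 and 4 of the 10 mg group, 0.024 and 0.070 without replicates 2 and 3 of the 20 mg group), Lcn2 between -0.020 (without replicate 2 of the 20 mg group) and 0.55, and Sox9 between -0.058 (without replicate 3 of the 20 mg group) and 0.27. Spp1 was 0.0099 without a filter, and with the covariate Lcn2 was -0.089 and Clu 0.028. For both doses together Havcr1 lay between -0.18 and 0.39, with -0.080 without control replicate 2 and -0.18 without replicate 1 of the 20 mg group. The cause of these changes was not tested, and none of these values was called.

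Replicate numbers are shared between groups but do not mark the same animals. With the replicate block 0 markers were called in any comparison, Slc5a2 was no longer called at 20 mg (log2 fold change -0.61, adjusted p = 0.206), and the number of all genes called at 20 mg was 27 in place of 52. Slc5a2 at 20 mg was called by DESeq2 (adjusted p = 0.000638), without a filter (0.0189), with the covariate (0.00976) and without the 4 libraries (0.0485). Lrp2 at 20 mg was called by DESeq2 (adjusted p = 0.00597), without a filter (0.00732) and with the covariate (0.0151), and its log2 fold change stayed between -0.87 and -0.66. Same-numbered mice correlated from -0.330 to 0.317 in their deviations, with 2 of 12 best with their own number. Over all genes, at 20 mg the number called was 182 with DESeq2, 416 without a filter, 1386 with the mitochondrial covariate and 107 without the 4 libraries, and leaving out 1 library gave 14 to 54. At 10 mg it was 5, with 40, 331, 15 and 26 in the same order and 2 to 8 when 1 library was left out. Between the doses it was 0, with 12 for DESeq2, 256 without a filter and 62 with the covariate. For both doses it was 24, with 136, 393, 276 and 67 in the same order and 8 to 35 when 1 library was left out. Depth limits Krt20 and Timp1, with at most 13 counts in a library (without a filter their log2 fold changes at 20 mg were 0.48 and -0.17, not called), and Havcr1, Lcn2 and Sox9, with at most 48.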

Other observations

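Of 5 adipocyte markers 4 were tested and 0 were called by edgeR, with 4 of 4 lower at 20 mg at an unadjusted p under 0.05, beside 3.53% of all genes. The summed level of the 5 was 73.5, 96.5, 6.50 and 66.7 CPM in the control mice, 34.9, 31.4, 0.949 and 10.4 CPM at 10 mg and 0.879, 7.66, 0.420 and 18.4 CPM at 20 mg. The groups overlap through control replicate 3. Cidec, a lipid droplet protein, had, at 20 mg, a log2 fold change of -3.02 (edgeR adjusted p = 0.253, DESeq2 adjusted p = 0.0999), and Plin1, which coats lipid droplets, had -2.52 (adjusted p = 0.383). Of 5 red cell markers 0 were called, with medians of -0.45 at 10 mg and -0.08 at 20 mg. Alas2, of haem synthesis, had a log2 fold change of -0.25 (adjusted p = 0.847) and Hbb-bt, a globin, had -0.08 (adjusted p = 0.980) at 20 mg. Of the adrenal markers Star alone was tested, and its log2 fold change was -0.17 (adjusted p = 0.856) at 20 mg.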
